A study of Mus musculus with 16 samples.

Results

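The genes described here encode the core odor transduction cascade of olfactory sensory neurons. They were taken by the array's gene symbols from a list of 10, namely Omp, Gnal, Gng13, Gnb1, Ric8b, Adcy3, Cnga2, Cnga4, Cngb1 and Ano2. All 10 were present among the 19505 genes with a symbol on the array, each through 1 probe set. The rule for the list uses no measured value, though the members were chosen with earlier results of these data known. The comparisons below were tested on each of them under that limit. On GRCm38.p6 (RefSeq, whole genes), Omp spans chr7:98143359-98145447, Gng13 chr17:25717172-25719102, Gnb1 chr4:155491300-155559269, Ric8b chr10:84917268-85018337 and Adcy3 chr12:4133116-4213525. The channel genes Cnga2, Cnga4, Cngb1 and Ano2 span chrX:71991849-72010218, chr7:105400024-105408775, chr8:95239043-95306585 and chr6:125690419-126040133.

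In an olfactory sensory neuron an odorant binds a receptor in the cilium, and the receptor activates a G protein made of the alpha subunit Golf (Gnal) with a beta and a gamma subunit (Gnb1 and Gng13). Ric8b is the chaperone and exchange factor of Golf. Golf stimulates adenylyl cyclase 3 (Adcy3), and the cAMP it makes opens a cation channel built from Cnga2, Cnga4 and Cngb1. Calcium entering through this channel opens the chloride channel Ano2, which enlarges the current. Omp, the olfactory marker protein, is a small cytoplasmic protein abundant in mature neurons and the usual marker of that stage.

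All samples came from S100a5-tauGFP mice. They carry a green fluorescent reporter under the promoter of S100a5, a gene that activity induces in these neurons, so GFP marks cells by reporter level and not by a direct record of firing. In all, 24 mice of both sexes, 7 to 12 weeks old, spent 40 h singly in clean-air chambers at 3.1 L/min, and from hour 26 received a 10 s pulse every 20 min. The odor arm received indole/ionone and the vehicle arm filtered air; every mouse carried the reporter. Olfactory mucosa from 3 mice at a time was dissociated and sorted, which gave 8 pools of 3 mice, 4 in each arm, and from every pool came 1 GFP+ and 1 GFP- sample. The 4 groups of 4 samples are therefore odor GFP+, odor GFP-, vehicle GFP+ and vehicle GFP-. The titles number a pair of vehicle pools 3, and one of them is called replicate 4 here. In these bulk samples fewer cells of a type and less RNA per cell cannot be told apart.

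Each sample filled 1 Clariom S array, and values are on a scale taken as log2, from 1.67 to 19.35. The correlation over genes was 0.984 to 0.994 between samples of a group and 0.943 to 0.965 between samples of opposite fractions. S100a5 itself was higher in GFP+ samples by 1.30 ± 0.17 (SE) in the odor arm and 1.27 ± 0.17 in the vehicle arm (adjusted p = 0.000184 and 0.000228, limma). Markers of mature sensory neurons were bright in both fractions, with a mean over 13 markers of 16.67 to 16.82 in GFP+ samples and of 16.33 to 16.63 in GFP- samples. Some marker lists of other cells were lower throughout in GFP+ samples of both arms. These included all 8 neutrophil markers, all 5 genes of the lymphocyte list and all 10 markers of microvillar and brush cells (Gng13 left out). Other lists were mixed: 4 of 9 sustentacular markers were lower in each arm, and 3 of 5 respiratory ciliated markers were higher in each. The mean of the 8 neutrophil markers ran from 13.53 to 15.66 in GFP- samples and from 5.06 to 6.30 in GFP+ samples, where 5 of them lay under the background median. The part these other cells play in the values of the cascade genes was not tested.

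One array stood apart at the top of the scale. Its highest gene was at 18.68, in vehicle GFP- replicate 2, against 19.21 to 19.35 on the other arrays, 7 of which shared the same highest value of 19.34. That array held the lowest value of its group for 8 of the 10 cascade genes, all but Gng13 and Cngb1, against 21.6% of all genes and 48.8% of genes with a mean above 16. The vehicle differences of the cascade genes and the vehicle counts of the gene lists are therefore given with and without vehicle replicate 2. The GFP- sample of odor replicate 3 was lowest of its group for 3 cascade genes, Omp, Gng13 and Cnga4.

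Of the 10 cascade genes, 9 lay among the brightest of the array in every one of the 16 samples, in GFP- cells as in GFP+ cells. Brightness of a probe set depends on its probes as well as on the RNA, so the following ranks place each gene on the scale of the array and do not order the amounts of the mRNAs. Gnb1 averaged 18.75 and ranked 2 to 4 on the 16 arrays, 0.37 to 0.62 under the brightest gene of its array. Omp averaged 18.45 at ranks 4 to 7, and Gnal averaged 18.15 at ranks 7 to 21. Ric8b averaged 17.48 (ranks 19 to 39), Adcy3 17.23 (ranks 32 to 59) and Cnga4 17.10 (ranks 45 to 66). Ano2 averaged 16.87 (ranks 53 to 90) and Cnga2 16.80 (ranks 63 to 86). Gng13 averaged 15.37, at ranks 203 to 453.

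Cngb1, the beta subunit of the channel, was the exception. Its probe set averaged 5.17 at ranks 11080 to 13349, and it lay under the median of the background probe sets on 16 of 16 arrays, where those medians ran from 5.63 to 6.05. By group it was at 5.23 ± 0.32 (SD, n = 4) in odor GFP+, 5.01 ± 0.23 in odor GFP-, 5.26 ± 0.29 in vehicle GFP+ and 5.18 ± 0.30 in vehicle GFP- samples. Its values are printed for completeness and carry no level of the mRNA, and its differences below are differences between background readings. Its GFP+ minus GFP- difference in vehicle pools was 0.08, and 0.03 without vehicle replicate 2.

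**Figure D1:**
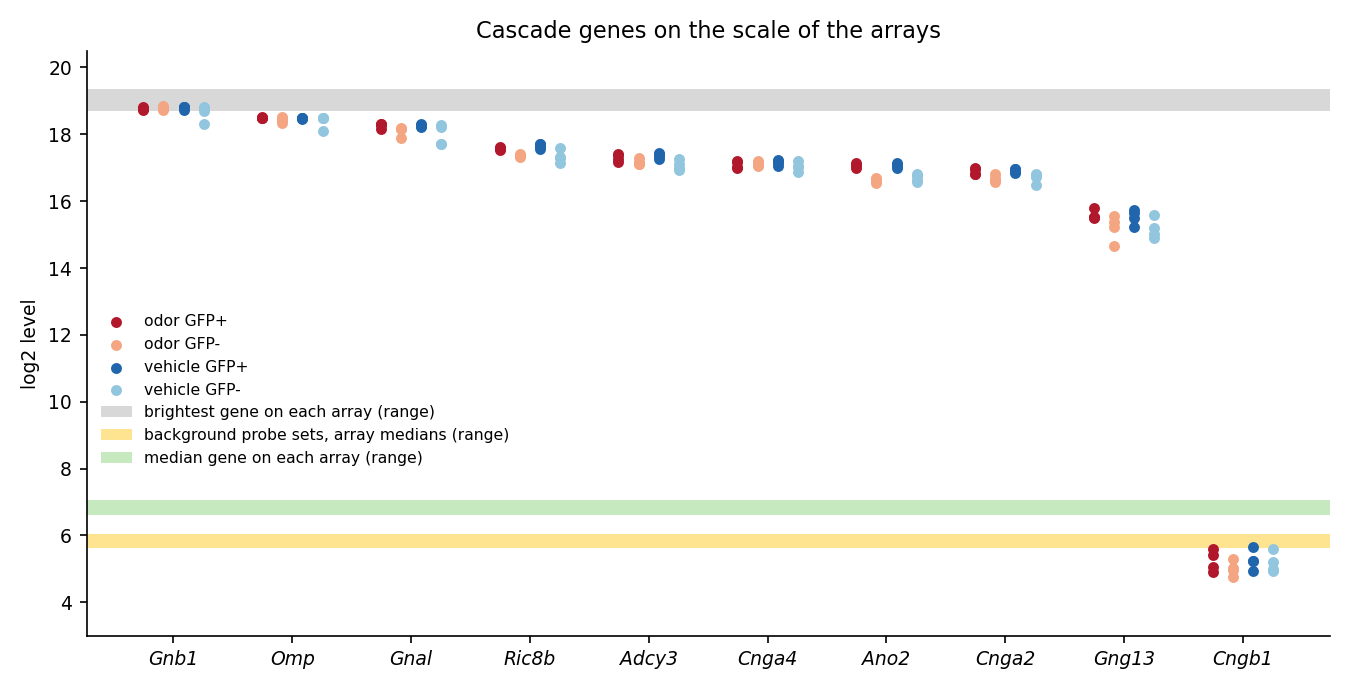
Log2 level of each cascade gene in the 16 samples (1 point per sample, coloured by group), with the range over arrays of the brightest gene (grey), of the median gene (green) and of the median background probe set (yellow). The first 8 genes lie between 16.48 and 18.84, Gng13 between 14.65 and 15.78, and Cngb1 lies at or under the background band.

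Values near the top of the scale varied little. The median within-group SD over genes fell from 0.33 for genes with a mean of 6 to 8 to 0.12 for those of 17 to 18 and 0.13 for those above 18. The median size of the GFP+ minus GFP- difference in odor pools fell with it, from 0.42 at 6 to 8 to 0.12 at 17 to 18 and 0.04 above 18. For genes with a mean under 6 the SD was 0.28 and the median size 0.22, so neither fell over the whole scale. The median size was not taken for vehicle pools. With its sign, the median difference above 18 was 0.04 in odor pools and 0.16 in vehicle pools, vehicle replicate 2 included. Only 11 genes averaged above 18, among them Omp, Gnal and Gnb1, and the fit called 0 of the 11 in either arm. Among these 11 the largest difference in odor pools was 0.16 in size, and it was larger, 0.54, among the 47 genes of 17 to 18. Of the 154 genes outside the cascade with a mean above 16, 6 were called higher and 1 lower in GFP+ samples of odor pools. What part the top of the scale plays in the small differences of Omp, Gnal and Gnb1 was not tested.

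Sequences upstream of the start were searched for the site of the Ebf (Olf-1) factors, which act on many olfactory neuron genes, and for the core of homeodomain factors. RefSeq windows of 250 bases before to 50 after the start, on GRCm38.p6, were held for 8 of the 10 genes, in 12 windows. No window was held for Omp or Gnal, so these genes were not searched. The Ebf site was searched on both strands as TCCC, any 2 bases and GGG, and was found in 1 window each of Gng13, Cnga2 and Ano2, and in 6.56% of all 32851 windows. With an A required after it, the site was in 0 of the 12 windows and in 0.904% of all. The homeodomain core TAATTA was in 0 of the 12 and in 5.29% of all. The 3 windows with a match are shown for the 250 bases before the start, 5′ to 3′ on the strand of the gene, here the plus strand each time, with the match in capitals.
Gng13, chr17:25716922-25717171: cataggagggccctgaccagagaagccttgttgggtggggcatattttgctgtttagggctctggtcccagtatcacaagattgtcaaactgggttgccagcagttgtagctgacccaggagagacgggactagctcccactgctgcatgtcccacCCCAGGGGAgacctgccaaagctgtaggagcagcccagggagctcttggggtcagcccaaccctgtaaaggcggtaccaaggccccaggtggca
Cnga2, chrX:71991599-71991848: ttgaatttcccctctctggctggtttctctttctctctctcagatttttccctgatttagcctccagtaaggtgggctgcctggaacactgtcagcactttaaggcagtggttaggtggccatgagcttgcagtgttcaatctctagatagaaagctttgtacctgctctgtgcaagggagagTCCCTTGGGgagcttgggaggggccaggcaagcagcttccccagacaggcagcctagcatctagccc
Ano2, chr6:125710938-125711187: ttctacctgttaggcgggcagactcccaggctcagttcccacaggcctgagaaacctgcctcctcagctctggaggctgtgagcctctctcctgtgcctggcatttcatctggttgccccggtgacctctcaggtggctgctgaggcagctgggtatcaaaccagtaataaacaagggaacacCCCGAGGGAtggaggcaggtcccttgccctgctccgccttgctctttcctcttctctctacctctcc
Counted from the start, the match lay at -67 to -59 in both Cnga2 and Ano2 and at -94 to -86 in Gng13. In Ano2 and Gng13 it is on the opposite strand, so that the capitals show its reverse complement. The Ano2 start used here lies inside the gene, which spans chr6:125690419-126040133. A match is a run of letters and does not show a bound site.

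The first comparison asked whether the cascade genes differ between the GFP+ and GFP- cells of the same pool. Of the 10 genes, 1 was called higher in GFP+ samples of odor pools at an adjusted p under 0.05, namely Ano2, and 0 were called lower. Among all genes 18.6% were called, 7.96% higher and 10.6% lower. In vehicle pools Ano2 was again the 1 gene called higher and 0 were lower, where 19.7% of all genes were called, 8.86% higher and 10.8% lower. At an unadjusted p under 0.05 there was 1 of the 10 in the odor arm, against 31.6% of all genes, and 3 in the vehicle arm, against 31.4%. The median difference of the 10 was 0.19 in the odor arm and 0.25 in the vehicle arm (0.19 without vehicle replicate 2), beside 0.11 in each for all genes; centring on neuron markers puts both medians of the 10 under 0.

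Ano2, the chloride channel at the end of the cascade, was at 17.15, 16.99, 17.08 and 17.09 in GFP+ samples of odor replicates 1 to 4 and at 16.55, 16.61, 16.70 and 16.68 in their GFP- samples. In vehicle replicates 1 to 4 it was at 17.07, 17.09, 17.0004 and 17.14 in GFP+ samples and at 16.63, 16.58, 16.80 and 16.77 in GFP- samples. Each GFP+ value lay above each GFP- value, in both arms, and the lowest GFP+ sample of all 8 stood at 16.99 against a highest GFP- sample of 16.80. Within pools the GFP+ sample was higher by 0.37 to 0.60 in the odor arm and by 0.20 to 0.51 in the vehicle arm. The fitted difference was 0.44 ± 0.12 (SE) in odor pools, a 1.36-fold ratio (95% interval 1.13 to 1.64, adjusted p = 0.0267), and 0.38 ± 0.12 in vehicle pools, or 1.30-fold (1.08 to 1.57, adjusted p = 0.0494). Taken against the median of all genes, Ano2 stood 0.33 higher in the odor arm and 0.27 higher in the vehicle arm. Over all 8 pools together, a fit added after the data were seen, Ano2 was higher by 0.41 ± 0.09 (1.33-fold, 1.17 to 1.52, adjusted p = 0.00374).

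Ano2's call in a single arm depended on the scaling and on single pools. With quantile normalization its adjusted p was 0.0514 in odor and 0.119 in vehicle pools, and with arrays centred on the mature neuron markers it was 0.355 and 0.635. The call in odor pools was lost without odor replicate 1 (0.121), 2 (0.0688) or 4 (0.0771), and that in vehicle pools without any one vehicle pool (0.055 to 0.181, the highest without replicate 2) or without odor replicate 1, 2 or 4 (0.0658 to 0.0713). Without vehicle replicate 2 the vehicle difference was 0.34. Over all 8 pools Ano2 was called with any one pool left out (adjusted p 0.00503 to 0.0151) and with quantile normalization (0.012), and that call was lost with neuron-marker centring, at 0.16 (adjusted p = 0.24). The difference kept its sign in each of these.

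**Figure D2:**
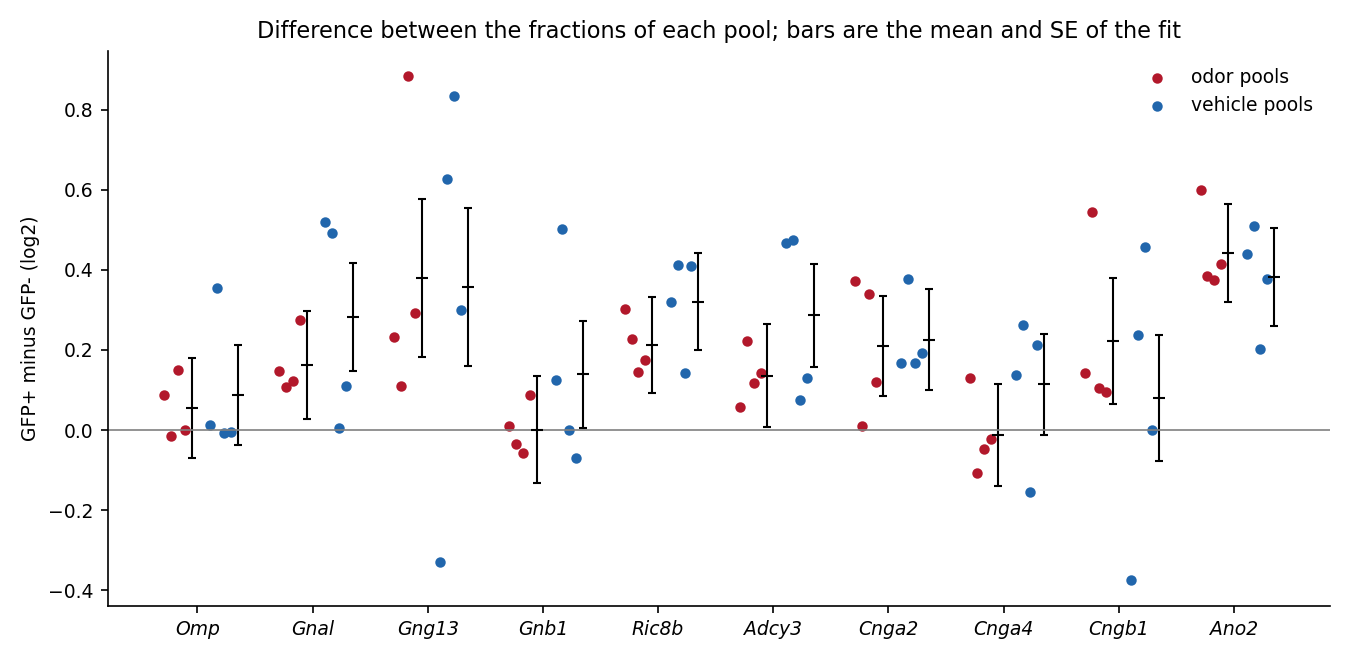
GFP+ minus GFP- log2 level within each pool (points; odor pools red, vehicle pools blue) for the cascade genes, with the fitted mean ± SE of each arm in black. Ano2 is above 0 in all 8 pools, from 0.20 to 0.60, while Gnb1 and Cnga4 lie on both sides of 0; with arrays centred on neuron markers the means of Omp, Gnb1, Cnga2, Cnga4 and Cngb1 lie under 0 in both arms, and those of Gnal, Ric8b and Adcy3 in the odor arm.

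Next in order came the G protein and its chaperone. Ric8b was at 17.62, 17.58, 17.55 and 17.52 in odor GFP+ samples and at 17.32, 17.36, 17.40 and 17.35 in odor GFP- samples. The fractions did not overlap in the odor arm, and the GFP+ sample was higher in each pool, by 0.15 to 0.30. In the vehicle arm the values were 17.63, 17.55, 17.72 and 17.71 in GFP+ and 17.31, 17.13, 17.58 and 17.30 in GFP- samples, where replicate 3 of the GFP- samples reached into the GFP+ range. The fitted differences were 0.21 ± 0.12 (adjusted p = 0.254) and 0.32 ± 0.12 (adjusted p = 0.0887), neither called, and the first turned to -0.02 with neuron-marker centring. Without vehicle replicate 2 the second was 0.29 (adjusted p = 0.254). Over all 8 pools Ric8b was higher by 0.27 ± 0.09 (adjusted p = 0.0335), which with Ano2 made 2 of 10 called higher and 0 lower, where 32.2% of all genes were called, 18.3% higher and 13.9% lower. The call of Ric8b over all pools was lost without any one of 6 of the pools, with adjusted p values up to 0.0856 without vehicle replicate 2, and with quantile normalization (0.163) or neuron-marker centring (0.923). At an unadjusted p under 0.05 there were 6 of the 10 over all 8 pools, against 43.4% of all genes.

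Gnal was at 18.30, 18.27, 18.31 and 18.17 in odor GFP+ samples and at 18.15, 18.17, 18.19 and 17.89 in odor GFP- samples. In vehicle pools it was at 18.24, 18.21, 18.28 and 18.32 in GFP+ samples and at 17.72, 17.72, 18.28 and 18.21 in GFP- samples, so that replicates 1 and 2 of the GFP- samples lay apart below the rest. The within-pool difference was above 0 in all 8 pools and ran from 0.11 to 0.27 in the odor arm and from 0.0045 to 0.52 in the vehicle arm. It did not pass the threshold, at 0.16 ± 0.13 (adjusted p = 0.439; -0.07 with neuron-marker centring) and 0.28 ± 0.13 (adjusted p = 0.181). Without vehicle replicate 2 the vehicle value of Gnal was 0.21 (adjusted p = 0.459).

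Gnb1 showed no difference beyond its error: the within-pool values ran from -0.06 to 0.09 in the odor arm and from -0.07 to 0.50 in the vehicle arm, where the 0.50 belongs to replicate 2. The fit gave 0.00085 ± 0.13 and 0.14 ± 0.13, with 95% intervals of -0.29 to 0.29 and -0.15 to 0.43, and quantile normalization or neuron-marker centring put both values under 0. Without vehicle replicate 2 the vehicle value was 0.02. Gng13 had the widest spread of the bright members. Its within-pool differences were 0.23, 0.11, 0.88 and 0.29 in odor replicates 1 to 4 and -0.33, 0.63, 0.83 and 0.30 in vehicle replicates 1 to 4. The highest of each arm was replicate 3, and vehicle replicate 1 was the 1 pool of 8 with the GFP- sample higher. The fitted differences, 0.38 ± 0.20 (adjusted p = 0.213) and 0.36 ± 0.20 (adjusted p = 0.245), did not pass the threshold and moved with single pools. The odor value was 0.21 without odor replicate 3, and the vehicle value was 0.59 (adjusted p = 0.0652) without vehicle replicate 1, 0.27 without replicate 2 and 0.20 without replicate 3.

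Adcy3, which makes the cAMP, was higher in the GFP+ sample of all 8 pools in the deposited values, by 0.06 to 0.22 in the odor arm and 0.07 to 0.48 in the vehicle arm. The fractions overlapped in both arms, at 17.17 to 17.41 in GFP+ against 17.11 to 17.29 in GFP- samples of odor pools, and 17.25 to 17.45 against 16.92 to 17.27 in vehicle pools. The fit gave 0.14 ± 0.13 (adjusted p = 0.507; -0.09 with neuron-marker centring) and 0.29 ± 0.13 (adjusted p = 0.152), and the second was 0.22 without vehicle replicate 2 (adjusted p = 0.4085).

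Among the channel subunits, Cnga2, the subunit that can form a channel alone, was at 16.96, 16.82, 16.98 and 16.81 in odor GFP+ samples against 16.59, 16.81, 16.64 and 16.69 in odor GFP- samples. In vehicle pools it was at 16.89, 16.86, 16.97 and 16.96 against 16.72, 16.48, 16.80 and 16.77. The fractions did not overlap in either arm, though in odor pools they all but touched, at 16.8122 for the lowest GFP+ and 16.811 for the highest GFP- sample. The fitted differences were 0.21 ± 0.13 (adjusted p = 0.28) and 0.23 ± 0.13, and neuron-marker centring turned them to -0.02 and -0.05. In vehicle pools without replicate 2 the difference was 0.18, and it was not called there either. Cnga4, a modulatory subunit, was higher in the GFP+ sample of 4 of 8 pools, with differences of -0.11 to 0.13 in the odor arm and -0.16 to 0.26 in the vehicle arm. Its fitted differences were -0.01 ± 0.13 (0.33 with median centring) and 0.11 ± 0.13 (-0.16 with neuron-marker centring), and its 4 groups overlapped, with means from 17.04 to 17.15. The vehicle value of Cnga4 was 0.06 without vehicle replicate 2 and 0.20 without replicate 3. The difference of Cnga2 from Cnga4 was not tested.

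Omp was the flattest of the 10 in GFP+ samples. It was at 18.50, 18.48, 18.50 and 18.51 in odor GFP+ samples and at 18.50, 18.46, 18.48 and 18.49 in vehicle GFP+ samples, with SDs of 0.01 and 0.02 (n = 4). In GFP- samples it was at 18.41, 18.50, 18.35 and 18.51 in odor pools and at 18.49, 18.11, 18.49 and 18.49 in vehicle pools. In the vehicle arm replicate 2 of the GFP- samples lay below the other 3. The fitted differences were 0.06 ± 0.12 and 0.09 ± 0.12, which quantile normalization and neuron-marker centring put under 0, and without vehicle replicate 2 the second was -0.00067.

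**Figure D3:**
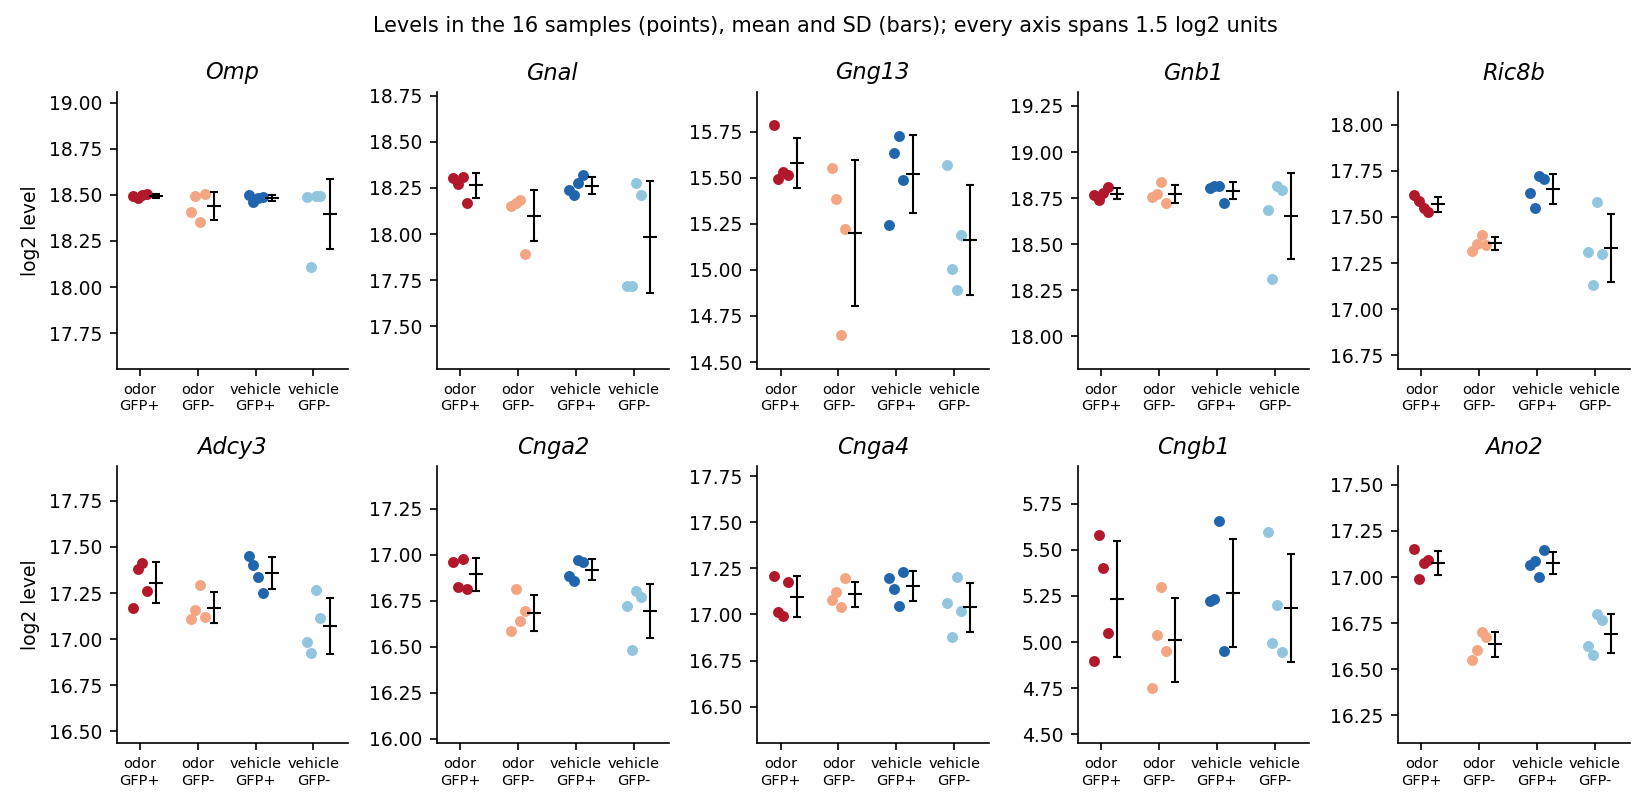
Log2 level of each cascade gene in the 4 groups (points are samples, replicates 1 to 4 from left to right; bars are the mean and SD of the group; every panel spans 1.5 log2 units). Ano2 shows no overlap of GFP+ with GFP- samples in either arm, and the low point of vehicle GFP- replicate 2 recurs in Omp, Gnb1 and Ric8b.

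Counted over pools in the deposited values, 5 of the 10 genes were higher in the GFP+ sample of all 8 pools. These were Gnal, Ric8b, Adcy3, Cnga2 and Ano2, beside 12.8% of all genes. Of these 5, neuron-marker centring turned the odor-arm mean of all but Ano2 under 0. That centring shifts the mean of every gene in an arm by the same amount, so such turns of sign are not separate results. In the odor arm alone 7 of the 10 were higher in all 4 pools (25.4% of all genes), Cngb1 with its background readings among them. In the vehicle arm 5 were (23.9%). Every GFP+ sample lay above every GFP- sample for 3 of the 10 in odor pools, namely Ric8b, Cnga2 and Ano2, and for 2 in vehicle pools, Cnga2 and Ano2, where 11.1% and 10.9% of all genes did. In the order of the 4 group means, a gap without overlap between neighbours was found at 1 place each in 4 of the 10, Gnal, Ric8b, Cnga2 and Ano2, and in 16.2% of all genes at 1 place or more. For Gnal and Cnga2 the neighbours were groups of different arms. For Gnal it lay between vehicle GFP+ at 18.26 ± 0.05 and odor GFP- at 18.10 ± 0.14 (SD), and for Ric8b between odor GFP+ at 17.57 ± 0.04 and odor GFP- at 17.36 ± 0.04. For Cnga2 it lay between odor GFP+ at 16.89 ± 0.09 and vehicle GFP- at 16.69 ± 0.15, and for Ano2 between vehicle GFP+ at 17.07 ± 0.06 and vehicle GFP- at 16.69 ± 0.11. All other neighbouring groups of the 10 genes overlapped.

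The values depend on where the arrays are centred. In the deposited values the median gene was 0.11 higher in GFP+ samples of either arm, and 42.9% of the calls in odor pools and 45.1% in vehicle pools were higher in GFP+. Both centrings moved this by more than 0.1. Centring each array on its median put the median gene at 0.46 and 0.45 and the share of higher calls at 86.5% in both arms, and all 10 cascade genes, Cngb1 included, were then called higher. Centring on the mature neuron markers instead called 0 of the 10 in either arm and put the median gene at -0.12 and -0.16 and the median of the 10 at -0.04 and -0.02, with 18.4% and 16.8% of calls higher. Relative to the median gene, the median of the 10 was 0.07 higher in the odor arm and 0.14 higher in the vehicle arm in the deposited values. Each centring shifts all genes of an array by the same amount, so these values could not change under it. After quantile normalization, which can change them, they were 0.01 and 0.06. That normalization put the share of higher calls at 56.6% in odor pools and 58.4% in vehicle pools. Ano2 stood 0.23 and 0.15 above the median gene after quantile normalization.

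The second comparison asked whether exposure to the odorant changed the cascade. No cascade gene was called between odor and vehicle. In GFP+ samples 0 of 10 were called and 0 had an unadjusted p under 0.05, where 0% of all genes were called and 5.49% had such a p. The differences ran from -0.08 for Ric8b to 0.06 for Gng13, and the 95% intervals of the 10 lay within -0.46 and 0.40, both bounds belonging to Cngb1. For Ano2 the odor minus vehicle difference in GFP+ samples was 0.0019 ± 0.11 (interval -0.25 to 0.25), and for Omp 0.01 ± 0.11 (-0.23 to 0.25). For Gnal it was 0.00046 ± 0.11 (-0.25 to 0.25), and for Adcy3 -0.05 ± 0.12 (-0.32 to 0.21). Odor and vehicle samples overlapped for all 10 genes in either fraction, where 3.21% of all genes in GFP+ and 2.48% in GFP- samples did not overlap.

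In GFP- samples 0 of 10 were called and 0 had an unadjusted p under 0.05, beside 0.00513% and 3.57% of all genes. The 1 gene called there, chosen for mention after its value was seen, was the odorant receptor gene Olfr76, with a difference of -1.95 ± 0.21 (adjusted p = 0.0292, limma), a call lost without 7 of the 8 pools in turn. The cascade genes differed by -0.17 for Cngb1 to 0.12 for Gnb1, with intervals within -0.59 and 0.54. The value of Gnb1 includes the array that stood apart, vehicle GFP- replicate 2, at 18.31 where the other vehicle GFP- samples lay at 18.68 to 18.82. Without that pool 0 of 10 were called in GFP- samples, and 0 had an unadjusted p under 0.05. The difference between arms of the GFP+ minus GFP- difference was likewise called for 0 of 10, with 0 unadjusted p values under 0.05, beside 0% and 3.35% of all genes. It ran from -0.15 for Adcy3 to 0.14 for Cngb1, within intervals of -0.59 to 0.63, and was 0.06 ± 0.17 (-0.32 to 0.44) for Ano2. Without vehicle replicate 2 it was again called for 0 of 10, with 0 unadjusted p values under 0.05. A p above the threshold does not show that the arms are alike, and the intervals give the sizes that were not excluded.

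**Figure D4:**
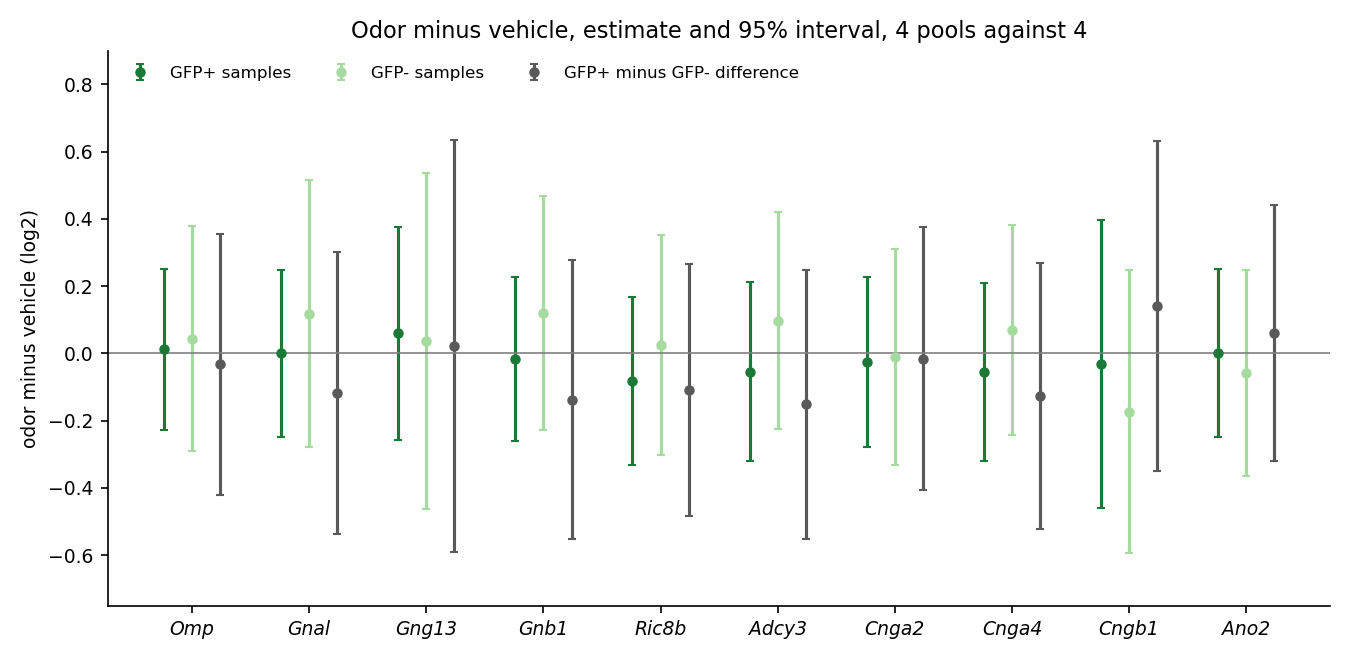
Odor minus vehicle on the log2 scale for the cascade genes, with 95% intervals, in GFP+ samples (dark green), in GFP- samples (light green) and for the within-pool GFP+ minus GFP- difference (grey), from 4 pools against 4. Every interval includes 0; the widest are those of Gng13 and Cngb1.

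Several paralogs of the cascade genes were much lower in the GFP+ fraction. Of 30 genes, the other G protein subunits together with Ric8a, 1 was higher and 11 lower in GFP+ samples of odor pools, with a median of -0.08 beside 0.11 for all genes, and 0 higher and 12 lower in vehicle pools (0 and 10 without vehicle replicate 2). With median centring 8 of the 30 were called higher in each arm, and 9 and 10 lower, and the medians were 0.27 and 0.13. Gnas, the stimulatory alpha subunit of most cells and the closest paralog of Gnal, was at 6.97 ± 0.14 (SD, n = 4) in odor GFP+ and 10.94 ± 0.44 in odor GFP- samples, a difference of -3.97 ± 0.23 (SE, adjusted p = 2.45e-07), where Gnal differed by 0.16. Gng8, a gamma subunit of immature sensory neurons, was at 6.02 ± 0.50 against 10.45 ± 0.62, a difference of -4.44 ± 0.31. Gnai2, an inhibitory alpha subunit, differed by -4.82 ± 0.17. Gnb5, a beta subunit that works with RGS proteins, was the 1 higher gene at 0.49 ± 0.13 in odor pools, and it was not called in vehicle pools (0.32 ± 0.13, adjusted p = 0.127). Its call in the odor arm held in 3 of the 4 scalings. Ric8a, the paralog of Ric8b, gave -0.07 ± 0.21, a sign that turned with median centring (0.27). The GFP- samples with the higher Gnas, Gng8 and Gnai2 also held the markers of other cells given above, and the mean of the 11 immature neuron markers, Gng8 among them, was 11.47 to 12.07 there against 9.82 to 10.27 in GFP+ samples.

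Of 9 other adenylyl cyclases, 0 were higher and 1 was lower in each arm, with medians of -0.01 and 0.07 (0.33 and 0.42 with median centring, where 3 were called higher in each), and leaving out vehicle replicate 2 left the vehicle counts at 0 and 1. The lower one was Adcy7, at -1.29 ± 0.21 in odor pools (adjusted p = 0.00113), and 8 of the 9 lay under the background median in GFP- samples and 9 of 9 in GFP+ samples. Of 6 other cyclic nucleotide-gated and HCN channels, 0 were called in odor pools and 2 were higher in vehicle pools, namely Hcn2 (0.45 ± 0.12) and Hcn4 (0.68 ± 0.17). Both calls were lost without vehicle replicate 2 (adjusted p = 0.112 and 0.0784) and with neuron-marker centring, and with median centring 5 of the 6 were called higher in odor and 4 in vehicle pools. The medians were 0.25 and 0.26 (0.02 and -0.01 with neuron-marker centring), and 4 of the 6 lay under the background median. Cnga3, the subunit of cone photoreceptors and of guanylyl cyclase D neurons, was at 3.74 ± 0.13 and 3.48 ± 0.27 in odor GFP+ and GFP- samples, a difference of 0.26 ± 0.14 that was not called. Of 9 other anoctamins, 0 were higher and 2 lower in each arm, with medians of -0.19 and -0.13 (0.15 and 0.22 with median centring); without vehicle replicate 2 the vehicle counts were again 0 and 2, and the median was 0.05. The 2 lower ones were Ano7 at -0.89 ± 0.19 and the scramblase Ano6 at -0.60 ± 0.15 in odor pools (adjusted p = 0.00726 and 0.0158). Ano7 averaged 4.63 ± 0.14 in odor GFP+ and 5.52 ± 0.54 in odor GFP- samples. Both means lay under the background medians, so its difference is between readings near the background. Of these 9 anoctamins, 6 lay under the background median in GFP+ samples and 5 in GFP- samples. Ano1, the epithelial chloride channel closest to Ano2, gave -0.58 ± 0.21 (adjusted p = 0.0825) at levels of 5.71 ± 0.16 and 6.29 ± 0.30. In a single arm no anoctamin but Ano2 was called higher in the deposited values, while over all 8 pools 1 of the other 9 was higher and 4 were lower. The higher one, named after its value was seen, was Ano3, at 0.31 ± 0.09 (adjusted p = 0.0239) and a mean level of 2.74, under the background. With median centring 3 of the other 9 were called higher in each arm, and with quantile normalization 2 in the odor arm.

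Among 23 partners, which load chloride, break down cAMP, remove calcium or act in feedback as kinases, calmodulins or RGS proteins, 2 were higher and 3 lower in odor pools, and 6 were higher and 3 lower in vehicle pools, with medians of 0.17 and 0.20 (-0.07 in each with neuron-marker centring). In vehicle pools without replicate 2, 3 were higher and 3 lower. With median centring 16 were higher and 3 lower in odor and 14 and 3 in vehicle pools, and with neuron-marker centring 2 and 4 in odor and 1 and 4 in vehicle pools. Slc8a1, a sodium-calcium exchanger, was at 11.75 ± 0.16 in odor GFP+ and 10.59 ± 0.30 in odor GFP- samples, higher by 1.16 ± 0.16 (adjusted p = 0.000291). Pde1c, the calcium-dependent phosphodiesterase of the cilium, was at 15.87 ± 0.08 against 15.20 ± 0.05, higher by 0.67 ± 0.12 (adjusted p = 0.00241). Both were also higher in vehicle pools, by 0.98 ± 0.16 and 0.61 ± 0.12, and both kept their sign in each of the 4 scalings. Rgs2, a regulator of G protein signalling, was at 3.97 ± 0.33 in odor GFP+ and 9.50 ± 0.72 in odor GFP- samples, a difference of -5.53 ± 0.23. Camk2b, a calmodulin-dependent kinase, differed by -1.10 ± 0.27 (adjusted p = 0.0136). Between odor and vehicle 0 genes of these 5 lists were called in either fraction.

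**Figure D5:**
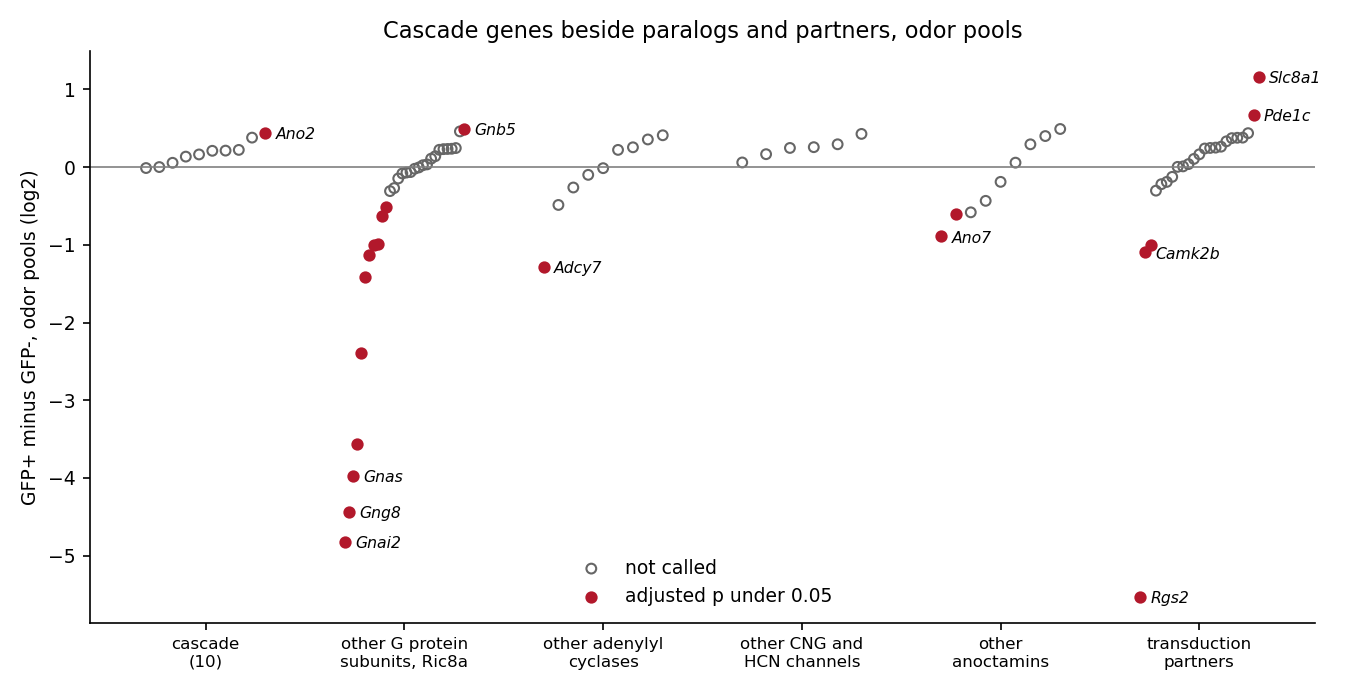
GFP+ minus GFP- difference in odor pools (log2, fitted to 4 pools per arm) for the cascade genes and for their paralogs and partners; each point is a gene, filled where its adjusted p is under 0.05. The cascade lies between -0.01 and 0.44, while G protein paralogs reach -4.82 and Rgs2 reaches -5.53.

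The genes whose levels followed those of each member most closely were found by Pearson correlation over the 16 arrays, which share fraction, pool and scaling, so these are descriptions. Ano2 went with the odorant receptor genes Olfr1082 (0.971), Olfr166 (0.969) and Olfr705 (0.969). Ric8b went with the cadherin gene Cdh18 (0.923) and the receptors Olfr1195 (0.917) and Olfr906 (0.908). Adcy3 went with Gabbr2, a GABA receptor subunit (0.942), Olfr1459 (0.903) and Ttbk1 (0.902). Cnga2 went with Ccdc106 (0.903), 9130401M01Rik (0.882) and Olfr1270 (0.875). Gnal went with Stk35 (0.956), Pacs2 (0.936) and Gcnt2 (0.924). Gng13 went with Atp5j2 and Atp6v1f, subunits of the mitochondrial and vacuolar ATPases (0.958 and 0.947), and with 1700012B09Rik (0.941). Cnga4 had the weakest partners, Zfr2 (0.813), Gm11938 (0.800) and C2cd4c (0.783), all of which averaged under 5. Cngb1, itself at background, went with Cypt14 (0.892), Ift57 (0.831) and Gm6408 (0.814).

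For Omp and Gnb1 these correlations fell when the array that stood apart was left out, least for Omp with Stoml3. Omp went with Stoml3, a stomatin of olfactory cilia (0.958), Blcap (0.874) and Stom (0.855), and without vehicle GFP- replicate 2 these were 0.756, 0.506 and -0.141 over 15 arrays. Gnb1 went with Stom (0.952), Stoml3 (0.899) and Lrrn1 (0.877), and without it these were 0.544, -0.224 and 0.473. The correlations of the other 8 members with their 3 genes were between 0.731 and 0.975 without that array. Among the members themselves the closest pairs were Cnga2 with Ric8b (0.873), Ano2 with Ric8b (0.856) and Ano2 with Cnga2 (0.838), at 0.816, 0.848 and 0.835 without that array. Gnb1 with Omp went from 0.817 to -0.282.

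The marker genes with the largest differences in odor pools show what else separated the fractions. Among neuronal markers, Snap25 and Olfm1 of mature neurons gave 0.41 ± 0.13 and 0.36 ± 0.15, neither called in the odor arm, and 0 of 13 mature markers were called in odor and 2 in vehicle pools (1 without vehicle replicate 2, and 13 of 13 higher in each arm with median centring), with medians of 0.25 and 0.26 (0.02 and -0.01 when centred on these markers). The medians of the cascade, 0.19 and 0.25, were near these. Nhlh1 and Gng8 led the 6 of 11 immature neuron markers that were lower, with a difference of -4.97 ± 0.26 for Nhlh1. Mki67, of dividing cells, and the progenitor gene Kit differed by -6.19 and -3.92, and all 5 globose basal markers were lower. Of 9 sustentacular markers 4 were lower, led by Krt18 and Krt8 (-3.68 and -3.44). Foxi1 and Trpm5 led the microvillar markers (-4.39 and -3.77), and Ms4a6c and Pde2a the 2 of 7 guanylyl cyclase D neuron markers that were lower (both -3.57).

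Among blood cell markers in odor pools, the neutrophil genes Ngp and Lcn2 differed by -10.41 and -10.17, and the macrophage genes Lyz2 and Csf1r, of 3 lower in 6, by -5.98 and -2.41. Of the lymphocyte list, Ptprc, which leukocytes in general carry, and Il7r differed by -5.94 and -4.20, and Car1 and Slc4a1 of the erythroid list, all 3 of which were lower, by -6.55 and -3.79. Markers of respiratory ciliated cells went the other way, with 3 of 5 higher in each arm (1 of 5 with neuron-marker centring), led by Ccdc113 and Tekt4 (1.13 ± 0.17 and 0.83 ± 0.20). The markers named are the 2 largest differences of each list, so they do not place the cascade among all genes. The cascade genes differed by -0.01 to 0.44 in odor pools and by 0.08 (Cngb1, a background reading) to 0.38 in vehicle pools. Leaving out vehicle replicate 2 made the vehicle range -0.00067 to 0.34. The cascade medians of 0.19 and 0.25 lay above the 0.11 of all genes in the deposited values. Without vehicle replicate 2, the lower calls in vehicle pools went from 3 to 2 of 7 for guanylyl cyclase D neurons and from 5 to 4 of 6 for macrophages, and the counts of the other marker lists, mature neurons apart, were the same. None of these marker lists held a gene called between odor and vehicle.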

How the data were processed

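Levels were the series' table of processed array values, taken here as log2; the deposited log2 values were made by the authors with Affymetrix Expression Console, per the submitters' processing notes. Its version and settings and the base of the logarithm were stated in no source used here, and the base was inferred from the range. Of 28846 probe sets, 19572 had 1 gene symbol, 0 several and 9274 none; all 19572 matched RefSeq (GRCm38.p6) by gene identifier. For 55 genes the probe set with the highest mean stood for the gene. The number of arrays limits the precision.

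GFP+ minus GFP- differences were fitted per pool with limma 3.58.1 in R 4.3.3, both arms sharing 1 moderated variance per gene; odor and vehicle were compared within each fraction without a block. P-values are two-sided, Benjamini-Hochberg adjusted over 19505 genes, with a threshold of 0.05, and measure the spread between pools of 3 mice. The fits were also run on simulated data with independent noise for every gene and array. Those data held no pool effect and no shift between arrays, so they could not check the pairing or the scaling. Fractions of a pool deviated from their group means together (correlations 0.109 to 0.249). Replicate numbers recur in both arms, but no label says that a number marks shared handling, and vehicle replicate 4 was numbered here. Same-numbered GFP+ samples correlated at 0.114 to 0.242. In GFP- samples and in the differences not all same-numbered values were above 0.1 (0.066 to 0.332 and 0.097 to 0.305). Differently numbered ones ran from -0.304 to 0.148 and from -0.22 to 0.144. The labels leave it unknown whether the numbers pair the pools.

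The members and lists were chosen with earlier results of these data known. Named genes were the 10 members, the 3 genes most correlated with each, the called genes of the 2 highest and 2 lowest differences of each paralog or partner list with Gnas, Gng8, Ric8a, Cnga3 and Ano1, and the 2 largest differences of each marker list. Alternatives were other scalings, filters and variance models, the mean of probe sets, the pool and replicate blocks, and leaving out each pool.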

Additional observations from a re-analysis of the deposited data

Results flagged for a closer look

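Within groups of 4, a highest or lowest value far from the others was found in 7 of the 60 groups of the cascade genes' levels and within-pool differences; chance gives about 1 in 20. Omp in vehicle GFP- replicate 2 was at 18.1097, where the other 3 samples lay between 18.4898 and 18.4941, and the Omp difference of that pool was 0.3535 against -0.0082 to 0.0122. The Cnga2 difference of the same pool was 0.3769 against 0.1662 to 0.1925. Gnal in odor GFP- replicate 4 was at 17.8940, with the others between 18.1542 and 18.1865. Gng13 in odor GFP+ replicate 1 was at 15.7846, with the others between 15.4957 and 15.5296. Gnb1 in vehicle GFP+ replicate 4 was at 18.7228, with the others between 18.8068 and 18.8167. The Cngb1 difference of odor replicate 2 was 0.5435, with the others between 0.0953 and 0.1433, both from readings at background. Of the 7, 3 belong to the pool whose GFP- array had the lowest maximum. These values were kept in all fits.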

How the results depend on the processing

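The count of cascade genes called depended on the scaling. In odor pools the 1 call became 10 with each array centred on its median, 0 with quantile normalization, 0 with arrays centred on neuron markers, and 2 with unmoderated variance; in vehicle pools it became 10, 0, 0 and 2, and 2 with dim genes left out. Over all 8 pools the 2 calls became 10 with median centring, 0 with neuron-marker centring and 4 with unmoderated variance. Leaving out 1 pool at a time gave 0 to 1 calls in odor pools, 0 to 1 in vehicle pools and 1 to 2 over all pools.

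Quantile normalization turned Omp and Gnb1 to -0.04107 and -0.01397 in odor pools, to -0.06696 and -0.02557 in vehicle pools and to -0.05402 and -0.01977 over all pools, where Cnga4 became -0.03993. Neuron-marker centring in odor pools gave -0.1742 for Omp, -0.06686 for Gnal, -0.2292 for Gnb1, -0.01753 for Ric8b, -0.09487 for Adcy3, -0.01991 for Cnga2 and -0.00842 for Cngb1. In vehicle pools it gave -0.1831 for Omp, -0.1321 for Gnb1, -0.04537 for Cnga2, -0.1571 for Cnga4 and -0.1913 for Cngb1. Over all pools it gave -0.1786 for Omp, -0.02819 for Gnal, -0.1806 for Gnb1, -0.03947 for Adcy3, -0.03264 for Cnga2, -0.1995 for Cnga4 and -0.09988 for Cngb1. Median centring turned Cnga4 in odor pools to 0.3292. With 1 pool left out, Gnb1 ran from -0.02784 to 0.02032 and Cnga4 from -0.05942 to 0.02016 in odor pools, and Omp from -0.00067 to 0.1199 and Cngb1 from -0.04579 to 0.2314 in vehicle pools.

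Counts over all genes moved too. Genes called higher went from 1552 in odor pools to 10682 (median centring), 2522 (quantile), 626 (neuron markers) and 972 (without odor replicate 1), and from 1728 in vehicle pools to 10604, 2763 and 628, with 1010 and 1014 without vehicle replicates 1 and 2. Genes called lower went from 2068 to 975 and from 2107 to 1016 with dim genes left out. Over all pools higher calls went from 3563 to 14219 (median centring) and 946 (neuron markers), and lower calls from 2714 to 4345 (neuron markers) and 1288 (dim genes left out). Between odor and vehicle 0 cascade genes were called under any alternative; with the replicate number as a block the smallest unadjusted p of the 10 was 0.5419 in GFP+ samples, 0.4036 in GFP- samples and 0.4569 for the difference, and the block changed no call. The 1 gene called in GFP- samples was 0 with unmoderated variance, and 1 gene was called for the difference with dim genes left out. The causes of these changes were not tested. Omp, Gnal and Gnb1 read near the top of the scale, and the part this plays in their differences was not tested. Readings of Cngb1 under the background limit what its values show.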
